A study of Schizosaccharomyces pombe with 10 samples.

Results

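Myo1-GFP chromatin was compared with NoIP chromatin in fission yeast (Schizosaccharomyces pombe) grown in phosphate-rich medium, to ask where along the chromosomes the GFP-tagged myosin gave more or less sequencing signal than the NoIP libraries. The comparison used the 5 high-phosphate libraries of the 10 in the series, chosen by their labels. There were 3 Myo1-GFP-HP libraries, whose strain is labelled Myo1-GFP, and 2 NoIP-HP libraries, whose strain is labelled wild-type. All were grown at 30°C for 4 h in YES, the rich medium, brought to 0.5 OD/ml and fixed with 3% formaldehyde for 30 min. The other 5 libraries, 3 Myo1-GFP-LP and 2 NoIP-LP, spent the same time in YES LowPi and serve below as a second setting for the same contrast. A pulldown on GFP-Trap beads is described for every library, so the labels do not say whether NoIP means beads on untagged chromatin or chromatin without beads, and strain and pulldown cannot be told apart here. No label says that replicates came from separate cultures, so p-values measure the spread between these libraries, which may be technical.

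Myo1 is the class I myosin of fission yeast, a motor that binds membrane and helps the Arp2/3 complex to build the branched actin of endocytic patches at the cell surface. In chromatin immunoprecipitation, DNA crosslinked to a protein is recovered with it and read back to the genome, so a bound region stands above a control library. In yeast, strongly transcribed genes are known to give raised signal in many such experiments, including controls, and a control library is therefore needed at every locus.

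Each value is a level on a log2 scale. The deposited signal of every 200 bp window was taken as log2(signal + 1), the median window of the same library was subtracted, and the windows that carry a Gene ID were averaged, so that 0 is the median window and 1 is 2 times its signal. In all, 6073 Gene IDs on chromosomes I, II and III were compared, over a median of 17 windows each. Changes are Myo1-GFP minus NoIP, with standard errors and p-values from limma.

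The libraries differed in depth. Reads, taken as whole multiples of the smallest step in each library and summed over overlapping windows, numbered 14.97, 31.6 and 1.42 M (M, mega) in Myo1-GFP-HP replicates 1, 2 and 3, against 10.75 and 38.2 M in NoIP-HP replicates 1 and 2. The median window of Myo1-GFP-HP replicate 3 held 8 reads, and counting error alone gives it a relative SD of 35.4%, against 6.07% to 12.5% in the other 4. Results are therefore given with and without replicate 3. In low phosphate, Myo1-GFP-LP replicate 3 was also shallow, with 1.80 M reads and 11 in its median window. It stays in every low-phosphate comparison below, in the main fit and in fits that leave out 1 high-phosphate library.

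Myo1-GFP-HP replicate 2 stood apart from its group at ura4, the gene for orotidine 5'-phosphate decarboxylase of uracil synthesis, which is widely used as a selectable marker in fission yeast (SPCC330.05c, chromosome III, 115589 to 116625). The 9 windows inside the gene held 97 to 134 reads each in Myo1-GFP-HP replicate 2, and 0 or 1 read in Myo1-GFP-HP replicates 1 and 3. They held 0 to 2 reads in NoIP-HP replicate 1 and 2 to 9 reads in NoIP-HP replicate 2. Over 5 windows that do not overlap, replicate 2 reached 51.01% of its median window (95% exact Poisson interval 46.9% to 55.3%, counting error only). The same share was 0.194% in Myo1-GFP-HP replicate 1, 7.5% from only 3 reads in Myo1-GFP-HP replicate 3, 1.88% in NoIP-HP replicate 1 and 1.99% in NoIP-HP replicate 2. The labels give no ura4 genotype, and the source of these reads was not tested, so results without replicate 2 are given as well.

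**Figure D1:**
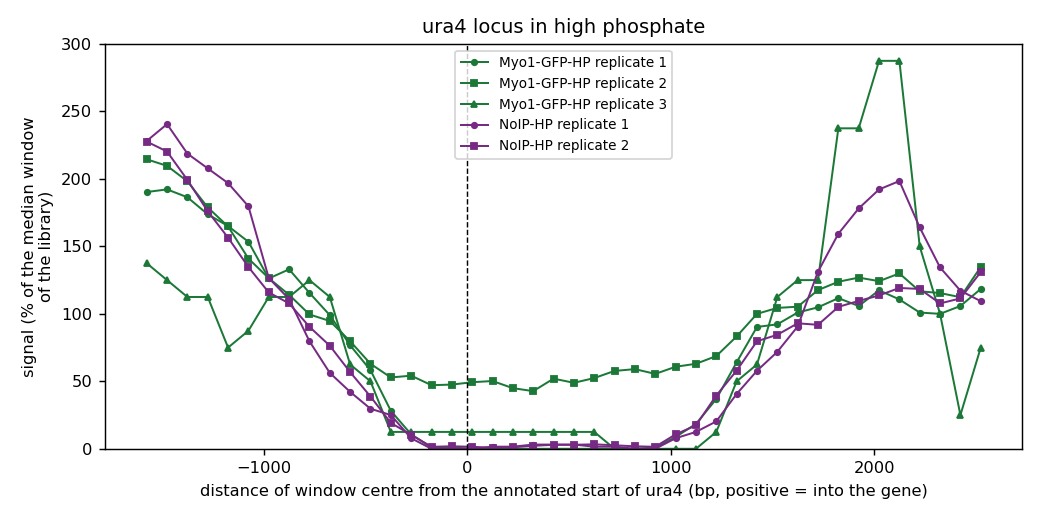
Signal around ura4 in the 5 high-phosphate libraries, as a percentage of the median window of each library (vertical axis), against the distance of the window centre from the annotated start of the gene in bp (horizontal axis). Inside the gene, Myo1-GFP-HP replicate 2 averages 51.01% of its median window, while the other 4 libraries lie near 0, apart from single reads in the shallow Myo1-GFP-HP replicate 3.

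Across the 6073 genes, the libraries did not sort by label. Pearson's r, as a description across genes that are not independent, was 0.85 between Myo1-GFP-HP replicates 1 and 2 and 0.88 between the 2 NoIP-HP libraries. The highest value among the 5 was 0.95, between Myo1-GFP-HP replicate 2 and NoIP-HP replicate 2. Myo1-GFP-HP replicate 3 correlated at 0.69 to 0.73 with each of the other 4.

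Gene by gene, no difference passed the test once all genes were considered. With limma, 0 of 6073 genes (0.0%) passed a Benjamini-Hochberg adjusted p of 0.05 in either direction, and the smallest adjusted p was 0.94. At an unadjusted p under 0.05, 33 genes (0.543%) were higher and 71 (1.17%) lower in Myo1-GFP. Without Myo1-GFP-HP replicate 3, 0 genes (0.0%) passed the adjusted threshold, and 27 (0.445%) were higher and 72 (1.19%) lower at the unadjusted one. With the shallow Myo1-GFP-LP replicate 3 left out as well, 0 genes passed the adjusted threshold and 509 the unadjusted one. Without Myo1-GFP-HP replicate 2 the adjusted count was again 0 (0.0%), with 55 genes (0.906%) higher and 151 (2.49%) lower at the unadjusted threshold. Against 104 genes at the unadjusted threshold with all libraries, there were 15 without NoIP-HP replicate 1 and 196 without NoIP-HP replicate 2, with 0 at the adjusted threshold in both. Limma's voom method, which weights genes and libraries by their precision, called 0 genes higher (0.0%) and 6 lower (0.0988%), namely gpd1, eng1, fhn1, atd1, cts2 and tps3, with adjusted p of 0.0081 to 0.021, and at an unadjusted p under 0.05 voom had 43 genes (0.708%) higher and 193 (3.18%) lower. Changes were small for most genes, since 91.2% of them lay within 0.3 log2 units of 0 and the median change was -0.01.

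The windows themselves gave the same picture at finer scale. Of 125712 windows above 0 in at least 2 libraries, 0 (0.0%) passed the adjusted threshold in limma, and 590 (0.469%) were higher and 926 (0.737%) lower at an unadjusted p under 0.05. These 1516 windows compare with 85 without NoIP-HP replicate 1 and 4283 without NoIP-HP replicate 2. Without Myo1-GFP-HP replicates 1, 2 and 3 in turn there were 2282, 4023 and 1098. In 9517 windows (7.57%) every Myo1-GFP library lay above both NoIP libraries, and in 11870 (9.44%) every one lay below.

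A second description asks whether every Myo1-GFP library lay on the same side of both NoIP libraries. All 3 Myo1-GFP levels lay above both NoIP levels in 453 genes (7.46%) and below both in 676 genes (11.1%). In the 4 deeper high-phosphate libraries, which leave out replicate 3, the counts were 905 (14.9%) above and 1324 (21.8%) below. With so few libraries, groups that do not differ also separate at times, and more often with 2 against 2 than with 3 against 2. Separation alone is therefore no mark of a difference. The genes named next are the 12 per direction with the smallest unadjusted p among these non-overlapping genes, so their high-phosphate values are a description of the rule and not evidence for it. Their low-phosphate changes were not ranked, but the p-values use a spread estimated over all 10 libraries.

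The 12 genes with lower Myo1-GFP signal all code for proteins, and their changes ran between -1.02 and -0.37, with a median of -0.51. They code for enzymes of glycerol, sugar and trehalose metabolism, for enzymes that cut the cell wall and septum, for eisosome proteins, for a chaperone and for a transcription factor. By the rule that named them, these genes cannot overlap in the 4 deeper libraries either. Their changes ran between -0.95 and -0.39 without replicate 3 and between -1.07 and -0.34 without replicate 2. Without NoIP-HP replicate 1 they ran between -0.86 and -0.29. NoIP-HP replicate 1 was the higher of the NoIP libraries in 11 of the 12. In low phosphate the same genes had a median change of -0.07, ranging between -0.28 and 0.14. There the groups separated downwards in 2 of 12, and in 12.7% of all genes.

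The gene gpd1 showed the widest gap of the 12. It codes for a glycerol-3-phosphate dehydrogenase, the enzyme that starts glycerol synthesis and is induced by osmotic stress through the Sty1 kinase and the factor Atf1 (SPBC215.05, chromosome II, 4035566 to 4037342). Its level was 0.60, 0.64 and 0.39 in Myo1-GFP-HP replicates 1, 2 and 3, against 1.73 and 1.40 in NoIP-HP replicates 1 and 2. All 3 Myo1-GFP libraries lay below both NoIP libraries, with a gap wider than the range within either group. The change was -1.02 ± 0.16 (SE), a signal at 49.2% of NoIP, with an unadjusted p of 0.000155 and an adjusted p of 0.94 in limma. It was -0.95 without replicate 3 and -1.07 without replicate 2. In low phosphate the levels overlapped, at 1.29, 1.25 and 1.45 in Myo1-GFP-LP against 1.29 and 1.5 in NoIP-LP, for a change of -0.06. The high-phosphate change minus the low-phosphate change was -0.96 ± 0.23 (SE), with an adjusted p of 0.9996 in limma across all genes, so the difference between conditions did not pass the threshold. The related gene gpd2, which codes for another enzyme of this name, had a change of 0.02.

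Along gpd1 the signal was lower over the gene and past its end, with overlap of the groups near the end. Of 16 windows wholly inside the gene, 15 had every Myo1-GFP library below both NoIP libraries, with a median change of -1.04 against -0.04 in low phosphate. The run of adjoining windows without overlap covered 19 windows and began upstream of the annotated start, in windows that carry the names of the non-coding RNAs SPNCRNA.436 and SPNCRNA.1657. It ended inside the gene, at 4037200. After windows with overlap, those between 4037301 and 4038000 again had every Myo1-GFP library below both NoIP libraries. The window with the smallest p (4036301 to 4036500) had levels of 0.64, 0.57 and 0.46 in Myo1-GFP-HP against 1.83 and 1.46 in NoIP-HP, for a change of -1.09 ± 0.19 (SE), with an adjusted p of 0.99992 in limma.

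**Figure D2:**
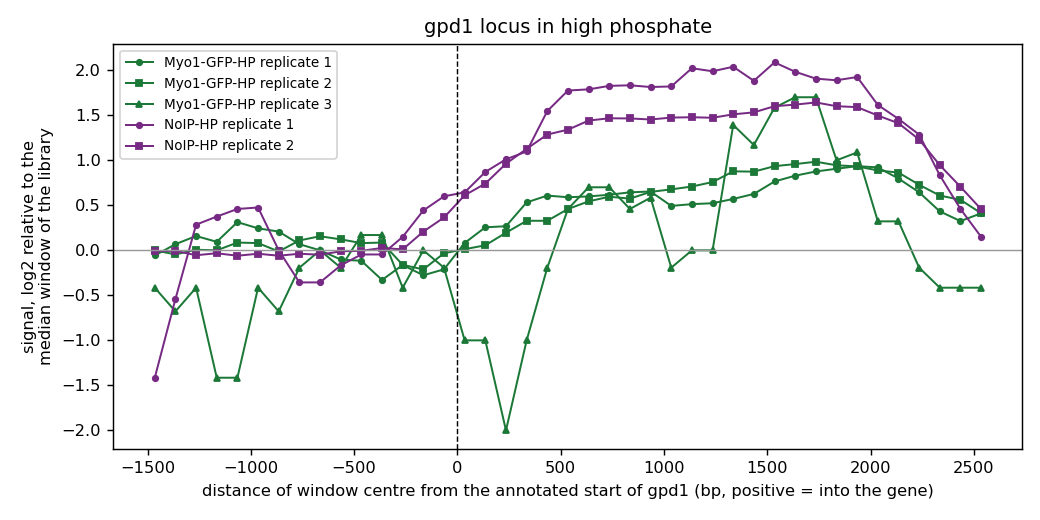
Signal along gpd1 in the 5 high-phosphate libraries, as log2 relative to the median window of each library (vertical axis), against the distance of the window centre from the annotated gene start in bp (horizontal axis). Averaged over the gene, Myo1-GFP-HP replicates 1 and 2 lie at 0.60 and 0.64 and NoIP-HP replicates 1 and 2 at 1.73 and 1.40, and in these 4 libraries the level is lowest at the start of the gene and climbs along it, while Myo1-GFP-HP replicate 3 varies most between neighbouring windows.

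The bases before the start of gpd1 are shown because they hold repeated copies of a short motif known from stress-response genes. For all 12 genes, the 250 bases upstream of the annotated start (RefSeq, ASM294v3) were searched on both strands for TGACGT, the core of sites bound by Atf1-type factors, GAANNTTC, a unit of heat shock elements, and TATAAA, known from core promoters. None of these motifs contains another. The upstream window runs 5′ to 3′ towards the gene with matches in capitals.
gpd1: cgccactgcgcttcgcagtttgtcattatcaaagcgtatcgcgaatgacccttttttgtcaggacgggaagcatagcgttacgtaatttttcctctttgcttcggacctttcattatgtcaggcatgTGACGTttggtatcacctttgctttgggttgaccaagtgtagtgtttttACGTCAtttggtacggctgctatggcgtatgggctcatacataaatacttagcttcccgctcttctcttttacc
The window of gpd1 is chrII:4035316-4035565 on the plus strand and its capitals are TGACGT and its reverse complement.

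Upstream of 2 of the 12 genes (gpd1 and fyu1) TGACGT was found, against 5.38% of 4726 protein-coding genes. GAANNTTC was found upstream of 2 (tps3 and hsp90), against 9.42%, and TATAAA upstream of 9, against 44.5%. Over the 569 protein-coding genes with all Myo1-GFP levels below NoIP, the shares were 10.02% for TGACGT, 9.84% for GAANNTTC and 45.7% for TATAAA. These are matches of letters in a fixed window, and nothing about the factors was measured.

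Septum and cell wall enzymes made up 3 of the 12. Eng1 is the endo-glucanase that dissolves the primary septum between daughter cells (SPAC821.09, chromosome I, 998632 to 1002361). Its level was 0.22, 0.33 and 0.28 in Myo1-GFP-HP, against 0.80 and 0.74 in NoIP-HP, for a change of -0.49 ± 0.10 (SE). The groups did not overlap and each varied little. In low phosphate, eng1 was at -0.15, -0.17 and -0.31 in Myo1-GFP-LP against -0.15 and -0.26 in NoIP-LP, for a change of -0.0045. The chitinase gene cts2 had 0.10, 0.22 and 0.23 in Myo1-GFP-HP, against 0.74 and 0.60 in NoIP-HP, a change of -0.49 ± 0.11 (SE). The glucan glucosidase gene exg1 had 0.42, 0.62 and 0.44 in Myo1-GFP-HP, against 1.13 and 0.92 in NoIP-HP, a change of -0.54 ± 0.15 (SE).

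The gene agn1, for the glucanase of the outer septum edge, was chosen after its values had been seen. It had 0.09, 0.28 and 0.00 in Myo1-GFP-HP, against 0.58 and 0.56 in NoIP-HP. A list of wall enzymes was also put together after the values had been seen, so its counts are a description only. Of 13 wall enzyme genes (glucan synthases, glucan-modifying enzymes and the chitinase, with exg1 and cts2 among them), 8 (61.5%) had every Myo1-GFP level below NoIP and 0 had every level above, where 11.1% of all genes lay below and 7.46% above. The median change was -0.15.

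Sugar and trehalose enzymes were next. Tdh1 is glyceraldehyde-3-phosphate dehydrogenase, an enzyme of glycolysis (SPBC32F12.11, chromosome II, 2807595 to 2809051). The level of tdh1 was 1.24, 1.42 and 1.11 in Myo1-GFP-HP, against 2.22 and 1.75 in NoIP-HP, for a change of -0.73 ± 0.18 (SE). In low phosphate its change was -0.05. The trehalose phosphate synthase family gene tps3 had -0.08, 0.08 and 0.12 in Myo1-GFP-HP, against 0.50 and 0.54 in NoIP-HP, a change of -0.48 ± 0.10 (SE). Gene fyu1 codes for the enzyme that makes UDP-glucose, a substrate of trehalose and glucan synthesis. It had 0.38, 0.33 and 0.44 in Myo1-GFP-HP, against 0.82 and 0.67 in NoIP-HP, a change of -0.37 ± 0.11 (SE).

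The catalytic trehalose phosphate synthase gene tps1 had 0.14, 0.08 and -0.15 in Myo1-GFP-HP, against 0.46 and 0.67 in NoIP-HP, for a change of -0.55 ± 0.19 (SE). A run of 12 adjoining windows in tps1 had no overlap between the groups, with a median change of -0.77. Of the 4 trehalose genes in a list also made after the values were seen, 3 lay below NoIP in every Myo1-GFP library, as did 11.1% of all genes. These include tps3 and tps1, so the share is a description only. In low phosphate 3 of the 4 also lay below, where 12.7% of all genes did.

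Glycolysis and fermentation genes were below 0 in change in 16 of 16 cases, as were 3119 of all 6073 genes, and their median was -0.17. In 4 of 16 (25%, against 11.1% of all genes) every Myo1-GFP library lay below NoIP. These 4 were tdh1, the phosphoglycerate kinase gene pgk1 (-0.56 ± 0.22, SE), the aldolase gene fba1 (-0.47 ± 0.24, SE) and the glucose-6-phosphate isomerase gene pgi1 (-0.15 ± 0.11, SE). Replicate 3 lay higher than the other Myo1-GFP libraries over this list, with a median level of 1.03 against 0.62 and 0.69 in Myo1-GFP-HP replicates 1 and 2, and 1.07 and 0.90 in NoIP-HP replicates 1 and 2. Without replicate 3, 13 of the 16 separated downwards (81.3%, against 21.8% of all genes in the same 4 libraries) and the median change was -0.34. The change of pgk1 was -0.36 without NoIP-HP replicate 1.

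Eisosomes are furrows of the plasma membrane held by the BAR-domain protein Pil1 and its partners. The eisosome assembly gene fhn1 had 0.73, 0.99 and 0.87 in Myo1-GFP-HP, against 1.60 and 1.46 in NoIP-HP, a change of -0.66 ± 0.18 (SE). The eisosome gene eis1 had -0.06, -0.14 and -0.15 in Myo1-GFP-HP, against 0.46 and 0.25 in NoIP-HP, a change of -0.47 ± 0.14 (SE). In both genes the groups did not overlap, and in low phosphate the changes were -0.28 for fhn1 and -0.17 for eis1. The gene pil1 itself, outside the 12, had 0.93, 0.79 and 0.20 in Myo1-GFP-HP, against 1.44 and 1.23 in NoIP-HP, a change of -0.70 ± 0.24 (SE) that was -0.47 without replicate 3. A run of 15 windows without overlap began in pil1 and ended in windows named for the non-coding RNA SPNCRNA.1133, with a median change of -0.69. Of 6 eisosome genes, listed after the values were seen, 3 lay below NoIP in every Myo1-GFP library, against 11.1% of all genes. In the 4 deeper libraries 5 did so, against 21.8% of all genes. The 3 are fhn1, eis1 and pil1, so these shares are a description only.

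The remaining members of the 12 were hsp90, tos4 and sro1. The chaperone gene hsp90 had 1.06, 1.38 and 1.22 in Myo1-GFP-HP, against 1.93 and 1.63 in NoIP-HP, a change of -0.56 ± 0.16 (SE). The gene tos4, annotated as a transcription factor, had 0.03, 0.18 and 0.07 in Myo1-GFP-HP, against 0.56 and 0.43 in NoIP-HP, a change of -0.41 ± 0.10 (SE). In low phosphate tos4 had -0.07, -0.13 and 0.00 in Myo1-GFP-LP, against -0.16 and -0.26 in NoIP-LP, so that there every Myo1-GFP library lay above both NoIP libraries. The gene sro1 had 0.33, 0.65 and 0.18 in Myo1-GFP-HP, against 1.08 and 0.86 in NoIP-HP, a change of -0.58 ± 0.17 (SE).

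Heat shock and stress genes, as a list, held 8 of 14 members with every Myo1-GFP level below NoIP and 3 of 14 with every level above, where 11.1% of all genes lay below and 7.46% above. The median change of the list was -0.30, against -0.01 over all genes. The members named next all lay below NoIP, while the highest change in the list was 0.24. The disaggregase gene hsp104 had 0.06, 0.36 and -0.31 in Myo1-GFP-HP, against 0.46 and 0.61 in NoIP-HP. Its change was -0.50, and -0.32 without Myo1-GFP-HP replicate 3. The small heat shock gene hsp9 had 0.05, 0.12 and -0.13 in Myo1-GFP-HP, against 0.30 and 0.79 in NoIP-HP. Its change was -0.53, and -0.28 without NoIP-HP replicate 2. The mitochondrial chaperonin gene mcp60 had 0.97, 1.17 and 0.83 in Myo1-GFP-HP, against 1.48 and 1.28 in NoIP-HP. Outside the lists, the aldehyde dehydrogenase gene atd1, one of the 6 genes called by voom, had 0.97, 1.28 and 1.89 in Myo1-GFP-HP, against 2.01 and 1.85 in NoIP-HP, so that replicate 3 overlapped with NoIP. Its change was -0.55 with replicate 3 and -0.81 without it, and -0.34 without Myo1-GFP-HP replicate 1.

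**Figure D3:**
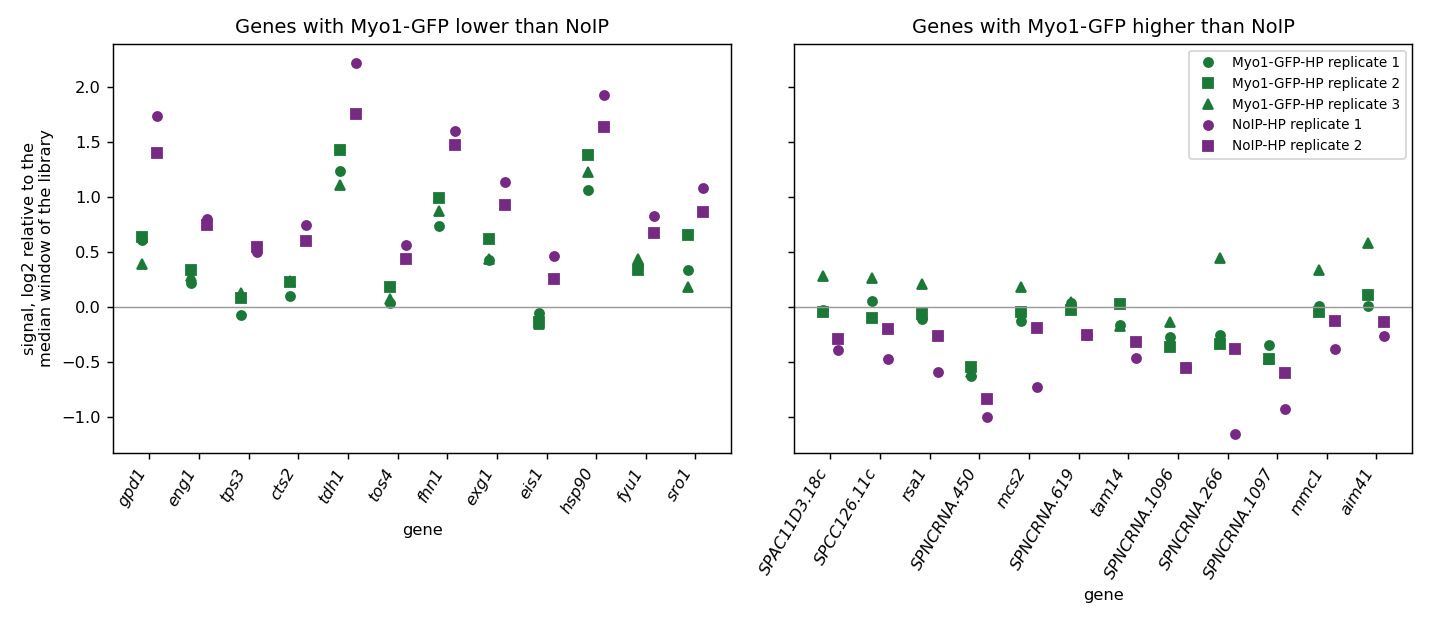
Level of each of the 12 genes with lower (left panel) and the 12 with higher (right panel) Myo1-GFP signal, as log2 relative to the median window of each library, with 1 point per high-phosphate library (Myo1-GFP green, NoIP purple, shapes for replicates). The genes on the left lie mostly above the median window in NoIP and those on the right below it, and for gpd1 the Myo1-GFP points run between 0.39 and 0.64 against 1.40 and 1.73 for NoIP.

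The 12 genes with higher Myo1-GFP signal differed by less, with changes between 0.27 and 0.72 and a median of 0.38. They were 7 protein-coding genes and 5 non-coding RNAs. In NoIP-HP they lay below the median window, with a median level of -0.41. NoIP-HP replicate 1 was the lowest NoIP library in 11 of 12, and the shallow Myo1-GFP-HP replicate 3 was the highest Myo1-GFP library in 9 of 12. Without replicate 3 the changes ran between 0.23 and 0.47, and without NoIP-HP replicate 1 between 0.17 and 0.37. In low phosphate the median change of the same genes was 0.01. There the groups separated upwards in 2 of 12, and in 5.15% of all genes.

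Among the protein-coding genes, SPAC11D3.18c, annotated as a carboxylic acid transporter, had -0.03, -0.04 and 0.28 in Myo1-GFP-HP, against -0.40 and -0.29 in NoIP-HP, a change of 0.41 ± 0.14 (SE). The ribosome assembly gene rsa1 had -0.11, -0.06 and 0.21 in Myo1-GFP-HP, against -0.59 and -0.27 in NoIP-HP, a change of 0.44 ± 0.15 (SE). The gene mcs2, for the cyclin of the transcription factor TFIIH, had -0.13, -0.05 and 0.18 in Myo1-GFP-HP, against -0.73 and -0.20 in NoIP-HP, a change of 0.46 ± 0.16 (SE). In all of these replicate 3 gave the top value, and replicates 1 and 2 lay close to the median window. Without NoIP-HP replicate 1 the change fell to 0.28 for rsa1 and 0.19 for mcs2, and without NoIP-HP replicate 2 that of mcs2 was 0.73. The gene for the RNA-binding protein SPCC126.11c had a change of 0.41, mmc1 one of 0.35 (0.23 without NoIP-HP replicate 1) and aim41, related to a mitochondrial amidotransferase, one of 0.43 (0.26 without Myo1-GFP-HP replicate 3). Gene tam14 had -0.16, 0.02 and -0.17 in Myo1-GFP-HP, against -0.46 and -0.32 in NoIP-HP. It lies beside ura4 on chromosome III, at 114921 to 115256, where the windows of the other libraries run down towards the nearly empty stretch, and its change was 0.22 without replicate 2.

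Of the 5 non-coding RNAs, SPNCRNA.266 had the largest value of the 12, at -0.25, -0.34 and 0.44 in Myo1-GFP-HP, against -1.16 and -0.38 in NoIP-HP. Its change of 0.72 ± 0.26 (SE) rested on replicate 3 and NoIP-HP replicate 1, and was 0.47 without Myo1-GFP-HP replicate 3, 0.33 without NoIP-HP replicate 1 and 1.11 without NoIP-HP replicate 2. The RNAs SPNCRNA.450, SPNCRNA.1096 and SPNCRNA.1097 lie near the left end of chromosome III, between positions 37658 and 49156. SPNCRNA.450, annotated as a small RNA near a long terminal repeat, had -0.63, -0.55 and -0.59 in Myo1-GFP-HP, against -1.0 and -0.84 in NoIP-HP, a change of 0.33 ± 0.11 (SE). SPNCRNA.1096 and SPNCRNA.1097 had changes of 0.29 and 0.34, and SPNCRNA.619 on chromosome I one of 0.27. Without NoIP-HP replicate 1 the change of SPNCRNA.1097 was 0.17.

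At the myo1 locus, the gene and the stretch before it differed. The gene (SPBC146.13c, chromosome II, 1023963 to 1027973, minus strand) had a level of 0.20, 0.16 and 0.18 in Myo1-GFP-HP, against 0.28 and 0.19 in NoIP-HP. Averaged over the gene the groups overlapped, and the change was -0.06 ± 0.14 (SE). That average takes in windows at the start that carry the myo1 Gene ID and belong to the upstream run described next. Upstream of the start, towards the coatomer gene sec26, 9 adjoining windows (1027901 to 1028900) had every Myo1-GFP library above both NoIP libraries. Their mean level was 0.89, 0.97 and 1.20 in Myo1-GFP-HP, against 0.44 and 0.10 in NoIP-HP. The median change over these windows was 0.80, a signal 1.75 times that of NoIP, and 0.64 in the 4 deeper libraries. The smallest unadjusted p, 0.000587, was in the window at 1028201 to 1028400, where the adjusted p was 0.99992 in limma.

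The same upstream stretch was also higher in low phosphate. There the mean level was 1.24, 1.39 and 1.433 in Myo1-GFP-LP, against 0.35 and 0.22 in NoIP-LP, with a median change of 1.16. The windows wholly inside myo1 had a median change of -0.13 in high phosphate and -0.06 in low phosphate. Of these 38 windows, 16 had every Myo1-GFP-HP library below both NoIP-HP libraries and 4 had every one above. Over all windows, 9.44% lay below and 7.57% above. The bases nearest the start of myo1 within the upstream stretch are shown because they fall inside the run. The window is chrII:1027974-1028223, printed on the minus strand, 5′ to 3′ towards the gene, and its capitals mark the only match to the motifs above, to GAANNTTC.
myo1: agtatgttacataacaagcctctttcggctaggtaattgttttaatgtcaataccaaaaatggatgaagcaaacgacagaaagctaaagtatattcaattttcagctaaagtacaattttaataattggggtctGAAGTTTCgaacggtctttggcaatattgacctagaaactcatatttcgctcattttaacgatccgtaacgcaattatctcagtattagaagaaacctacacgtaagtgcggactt

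**Figure D4:**
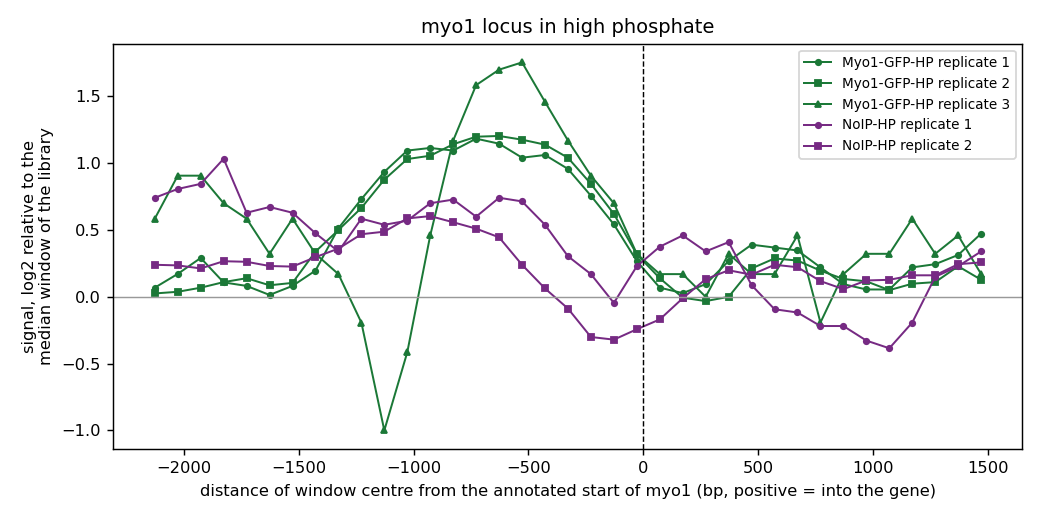
Signal around the annotated start of myo1 in the 5 high-phosphate libraries, as log2 relative to the median window of each library (vertical axis), against the distance of the window centre from the start in bp, positive into the gene (horizontal axis). Upstream of the start the Myo1-GFP libraries lie above NoIP, with means of 0.89, 0.97 and 1.20 against 0.44 and 0.10 over the 9 windows. Averaged over the gene, the groups overlap.

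Besides the stretch at myo1, the rule for runs of windows gave 3 others with higher Myo1-GFP signal, all on chromosome II. The best window in mcs2 had 0.21, 0.16 and 0.46 in Myo1-GFP-HP, against -1.36 and -0.25 in NoIP-HP, for a change of 1.08 ± 0.30 (SE). The best window in sfc9, a gene for a subunit of the RNA polymerase III factor TFIIIC, had 0.28, -0.13 and 0.46 in Myo1-GFP-HP, against -1.14 and -0.33 in NoIP-HP, a change of 0.94 ± 0.27 (SE). In both, NoIP-HP replicate 1 lay far below NoIP-HP replicate 2, and without it the changes were 0.53 in mcs2 and 0.54 in sfc9. The best window in SPBC1711.09c, annotated as a SNARE-associated protein, had 0.36, 0.14 and 0.70 in Myo1-GFP-HP, against -0.48 and -0.19 in NoIP-HP, a change of 0.73 ± 0.22 (SE). In low phosphate this window had -0.23, -0.19 and -0.14 in Myo1-GFP-LP, against -0.11 and -0.33 in NoIP-LP, which overlap. Runs with lower Myo1-GFP signal were those in gpd1, tps1 and pil1 and a run of 13 windows at atd1 with a median change of -0.61.

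Genes of the machinery in which Myo1 is known to act were looked at next. The 5 myosin heavy chain genes had changes between -0.06 and 0.05, and 0 of them had groups that did not overlap. Of 25 genes for actin patches and endocytosis, 7 (28.0%) lay below NoIP in every Myo1-GFP library, 2 (8.0%) above and 16 neither, where 11.1% of all genes lay below and 7.46% above. Their median change was -0.12. The gene arp2, for a subunit of the Arp2/3 complex, had 0.10, 0.12 and -0.33 in Myo1-GFP-HP, against 0.31 and 0.28 in NoIP-HP. The actin gene act1 had 0.84, 0.82 and 1.03 in Myo1-GFP-HP, against 1.25 and 1.0 in NoIP-HP, which overlap. The gene cam2, for the calmodulin-like light chain of Myo1, had 0.03, 0.02 and 0.26 in Myo1-GFP-HP, against -0.26 and 0.00 in NoIP-HP, and was one of the 2 above. At an unadjusted p under 0.05, 0 of the 25 were called in either direction.

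Phosphate genes are known to respond when phosphate is scarce. Of 11 genes for phosphate uptake and its regulation, 1 (9.09%, against 11.1% of all genes) lay below NoIP in every Myo1-GFP library and 2 (18.2%, against 7.46%) above, with a median change of 0.07. The phosphate transporter gene pho84 had 0.52, 0.48 and 0.75 in Myo1-GFP-HP, against 0.37 and 0.23 in NoIP-HP, a change of 0.28 ± 0.28 (SE). The acid phosphatase gene pho1 had 0.51, 0.49 and -0.34 in Myo1-GFP-HP, against 0.26 and 0.27 in NoIP-HP, so that its change was -0.05 with replicate 3 and 0.24 without it. The glycerophosphodiester transporter gene tgp1 had -0.08, -0.06 and -0.25 in Myo1-GFP-HP, against 0.02 and -0.16 in NoIP-HP, which overlap. The gene pqr1, for a ubiquitin ligase of phosphate homeostasis, had 0.34, 0.29 and -0.01 in Myo1-GFP-HP, against 0.54 and 0.45 in NoIP-HP.

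In high phosphate, the result for strongly transcribed classes turned on the shallow library. The 166 tRNA genes had a median level of 0.62, 0.77 and 1.51 in Myo1-GFP-HP replicates 1, 2 and 3, against 1.05 and 0.84 in NoIP-HP replicates 1 and 2. Their median change was 0.02 with replicate 3 and -0.26 without it, and the number of tRNA genes lying below NoIP was 10 (6.02%, against 11.1% of all genes) in all 5 libraries and 97 (58.4%, against 21.8% of all genes) in the 4 deeper ones. The 44 annotated rRNA genes had median levels of 0.57, 0.71 and 2.14 in Myo1-GFP-HP, against 1.05 and 0.81 in NoIP-HP, and a median change of 0.08 with replicate 3 and -0.36 without it. Both classes hold near-identical copies between which reads may have been split, so their values are uncertain. The 115 cytosolic ribosomal protein genes had a median change of -0.02, or -0.10 without replicate 3, with 14 (12.2%, against 11.1% of all genes) below NoIP and 0 above. In the 4 deeper libraries 56 of them (48.7%, against 21.8%) lay below and 1 above. For 7 translation elongation factor genes the median was -0.02, or -0.26 without replicate 3, with 0 below and 0 above. In low phosphate, with the shallow Myo1-GFP-LP replicate 3 included, the tRNA genes had a median change of -0.35. There 90 of the 166 lay below NoIP, against 12.7% of all genes. Fewer did so among the 44 rRNA genes (8) and the 115 ribosomal protein genes (3).

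Of 9 genes for core histones and their variants, 3 (33.3%, against 11.1% of all genes) lay below NoIP and 0 above, with a median change of -0.12. In the 4 deeper libraries 6 (66.7%, against 21.8%) lay below, and without replicate 3 the median change was -0.28. The H2B gene htb1 had 0.75, 0.91 and 1.08 in Myo1-GFP-HP, against 1.27 and 1.27 in NoIP-HP, a change of -0.35 ± 0.18 (SE). The 29 snoRNA genes had a median of -0.19, with 7 (24.1%) below and 1 (3.45%) above, and the 5 snRNA genes had a median of -0.19, with 2 below and 0 above, where 11.1% of all genes lay below and 7.46% above. In the 4 deeper libraries 12 snoRNA and 4 snRNA genes lay below, against 21.8% of all genes. Meiotic genes, most of which are silent in growing cells, had a median of -0.03 over 15 members. Of these, 1 lay below (6.67%, against 11.1% of all genes) and 0 above (against 7.46%). Of the 4 marker loci listed, 0 were below or above.

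The change tracked how much signal a gene carried in a control it was not measured against. Genes were placed in 5 equal classes by their mean level in the 2 NoIP-LP libraries, whose levels do not enter the high-phosphate change. Median changes were 0.05, 0.02, -0.01, -0.03 and -0.08 in the classes with the lowest to the highest level. The share of genes with every Myo1-GFP level below NoIP was 4.12%, 6.67%, 9.79%, 15.2% and 19.8% in the same order, and the share with every level above was 14.7%, 10.1%, 5.93%, 5.11% and 1.48%. In the top class the median level was 0.34, 0.39 and 0.49 in Myo1-GFP-HP replicates 1, 2 and 3, against 0.54 and 0.43 in NoIP-HP replicates 1 and 2. There the median change was -0.14 without replicate 3 and -0.07 without replicate 2. The spread of levels across genes was widest in the shallow library and in NoIP-HP replicate 1, with an SD of 0.41, 0.33 and 0.67 in Myo1-GFP-HP replicates 1, 2 and 3, against 0.54 and 0.38 in NoIP-HP replicates 1 and 2. The part of this spread in the trend was not tested.

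**Figure D5:**
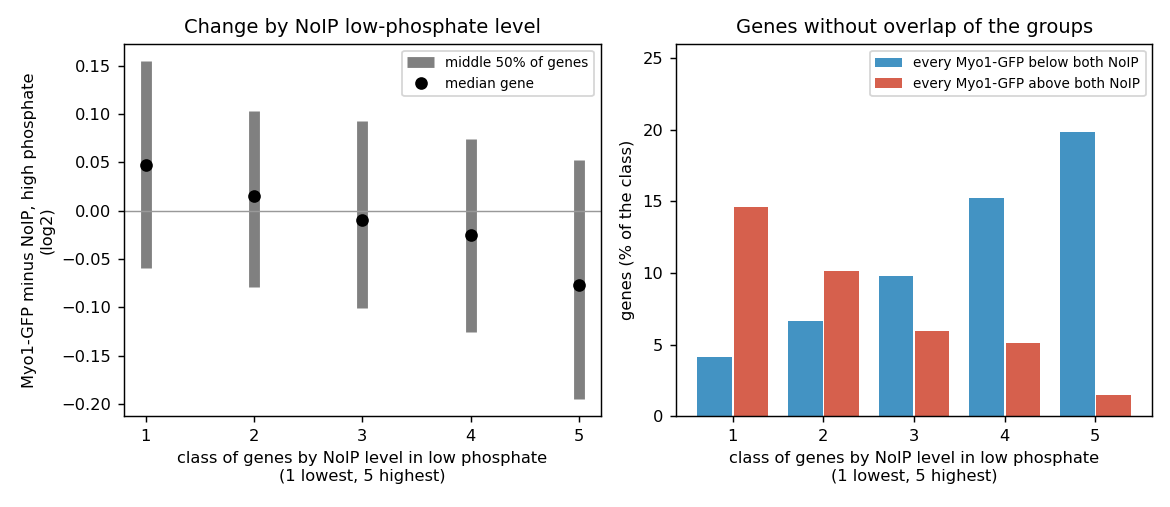
Left, change between Myo1-GFP-HP and NoIP-HP (log2, median gene as a point and the middle 50% of genes as a bar) in 5 classes of genes ordered by their NoIP level in low phosphate. Right, the share of genes in each class with every Myo1-GFP library below (blue) or above (red) both NoIP libraries, where the share below is 4.12% in the first class and 19.8% in the last.

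By chromosome, the directions were unequal. On chromosome III, 5.99% of 1135 genes lay below NoIP in every Myo1-GFP library and 13.1% above, whereas on chromosome I 12.5% of 2711 genes lay below and 5.86% above, and on chromosome II 12.1% of 2227 genes below and 6.51% above. In the 4 deeper libraries the shares on chromosome III were 13.1% below and 26.3% above, against 21.8% and 14.9% of all genes. Long non-coding RNAs, 1006 genes in all, lay below in 7.95% and above in 6.36%, against 11.1% and 7.46% of all genes. Across genes, and as a description only, the correlation of the change with GC content was -0.05 over 6010 annotated genes, and with the number of windows -0.04.

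Whether the high-phosphate change differed from that in low phosphate was asked by the interaction term. With limma, 0 of 6073 genes (0.0%) passed the adjusted threshold, with 28 (0.461%) at an unadjusted p under 0.05 and a smallest adjusted p of 0.9996. Of the 676 genes below NoIP in high phosphate, 117 (17.3%) were also below in low phosphate, where 773 of 6073 genes (12.7%) were. Of the 453 genes above in high phosphate, 33 (7.28%) were also above in low phosphate, where 313 genes (5.15%) were. Other genes went the opposite way. Of the 676, 25 lay above NoIP in low phosphate, where 5.15% of all genes did. Of the 453, 33 lay below NoIP in low phosphate, as many as lay above, where 12.7% of all genes lay below. These counts compare separate libraries for each condition, and no test was made on them.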

How the data were processed

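Chromatin immunoprecipitation sequencing of 10 libraries was used, with groups taken from the labels. Processing notes name Trim Galore 0.3.8, Bowtie2 2.2.4 and the ASM294v2 build, whereas the methods of the study name TopHat and SeqMonk for its sequencing data. The authors deposited a table of signal in 126317 windows of 200 bp every 100 bp, scaled per library in a way not given in the sources used here, and duplicate removal and mapping filters are not stated. Every value was a whole multiple (within 0.05) of a step per library, taken as 1 read. Signal is not a count, so limma 3.58.1 in R 4.3.3 (lmFit, eBayes with trend, two-sided, 10 libraries, 1 mean per group, 4 groups) was fitted to log2(signal + 1) minus the library median window. Adjustment was by Benjamini-Hochberg over all genes or windows, with a threshold of 0.05. Alternatives were a pseudocount of 1000, other scalings and filters, weights, voom on step multiples, a replicate block, and leaving out each library. The main fit was also run on simulated data with noise drawn independently for each gene and library. These data lack structure shared between libraries, and no result above rests on them.

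The comparison, gene lists and naming rule (the 12 smallest p per direction over at least 3 windows with groups that do not overlap, at most 5 best windows per direction, myo1, gpd1 and the lists) were chosen with earlier results of these data known. Of 140 listed symbols 131 matched. Genes, coordinates and sequences came from RefSeq ASM294v3, in which these 3 chromosomes end where the table's last windows end. Of 6073 Gene IDs, 6010 were annotated. Python 3.11.15, pandas 2.3.3, scipy 1.17.1 and matplotlib 3.10.9 were used.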

Additional observations from a re-analysis of the deposited data

Results flagged for a closer look

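The 195 mitochondrial windows, outside the comparison of chromosomes I, II and III, were higher in every Myo1-GFP-HP library than in both NoIP-HP libraries. Their mean level was 3.13, 2.47 and 4.996 in Myo1-GFP-HP replicates 1, 2 and 3, against 2.30 and 1.72 in NoIP-HP replicates 1 and 2. The difference of 1.52 was not tested, and the shallow replicate 3 gave the top value. In low phosphate the levels overlapped, at 1.70, 2.09 and 5.53 in Myo1-GFP-LP against 2.39 and 1.67 in NoIP-LP.

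For 2 of the named genes the groups separated in opposite directions in the 2 media. Other genes did so as well, so these 2 are a description only. Of the 676 genes below NoIP in high phosphate, 25 lay above it in low phosphate, where 5.15% of all genes did. Of the 453 genes above NoIP in high phosphate, 33 lay below it in low phosphate, where 12.7% of all genes did. Every Myo1-GFP library lay below NoIP in high phosphate and above it in low phosphate at tos4, where the high-phosphate change minus the low-phosphate change was -0.55 (limma, adjusted p 0.9996). At SPNCRNA.450 the order was the reverse, above in high and below in low phosphate, with a difference of 0.52 (limma, adjusted p 0.9996). Among windows, the one in mcs2 and the one in sfc9 were above NoIP in high phosphate and below it in low phosphate, with differences of 1.36 and 1.11 that were not tested.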

How the results depend on the processing

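The count of genes past the threshold was 0 with limma in every alternative except voom, which called 6. The count was also 0 for windows and for the difference between conditions in every alternative run, and 0 to 0 when each library in turn was left out. At an unadjusted p under 0.05, where all libraries gave 104 genes, the alternatives ran between 15 (without NoIP-HP replicate 1) and 509 (8 deeper libraries), and for windows, where all gave 1516, between 85 and 9271 in the same fits. For the 54 single genes and windows, 953 values were recomputed. Of these 923 kept direction and side of the threshold, 6 passed it under voom only (gpd1, eng1, fhn1, atd1, cts2 and tps3), and 24 changed sign in 4 genes whose change was near 0. None of the 12 lower genes, 12 higher genes or named windows changed sign. For fits that only leave libraries out, the naming rule fixed this in advance.

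The acid phosphatase gene pho1 turned to 0.0857 under quantile normalization, 0.21 with array weights, 0.22 under voom, 0.25 with the replicate block, and 0.24 in the 8 deeper libraries (with or without array weights), in the 4 deeper high-phosphate libraries and without Myo1-GFP-HP replicate 3, and it ran between -0.1885 and 0.2354 as each library was left out. For tgp1 the values were 0.0585 under voom, 0.0811 with the replicate block, 0.0018 in the 8 deeper and the 4 deeper libraries and without Myo1-GFP-HP replicate 3, and between -0.1486 and 0.0347 as each library was left out, positive also without NoIP-HP replicate 1. For gpd2 they were -0.0126 without centring, -0.0004 with array weights, -0.0210 under voom and -0.0243 in the 8 and the 4 deeper libraries and without Myo1-GFP-HP replicate 3, -0.0041 without NoIP-HP replicate 1, and between -0.0243 and 0.0857 as each library was left out. For myo1 the value was 0.0133 with the replicate block. The cause of these turns was not tested. Fits on the 4 deeper high-phosphate libraries alone, on the 8 deeper libraries with array weights, and on the 8 deeper libraries for windows were chosen after seeing the data.

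Replicate numbers are shared by the groups, but only 2 pairs exist in high phosphate and no label ties them to a batch. Deviations from the group means correlated at -0.05 for number 1 and 0.47 for number 2. With the replicate block, 0 genes passed the threshold, and pho1, tgp1 and myo1 took the values given above. Myo1-GFP-HP replicate 3 held 8 reads in its median window, and the median standard error of a gene's change was 0.16. Without that library 0 genes passed the threshold as well. The part of depth in these counts was not tested.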
